A study of Mus musculus with 2 samples.

Results

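Polyamine metabolism genes are the enzymes that make, acetylate and oxidise the polyamines putrescine, spermidine and spermine, together with the antizymes and the antizyme inhibitor that set how much of the first enzyme is kept. The group was defined by 10 gene symbols, and 9 of them had a row among the 22558 genes of the deposited tables. The symbol without a row was Oaz2. RNA was sequenced from cells sorted by flow cytometry directly from dissociated, untreated breast tumours. The mice were of the inbred strain FVB. The TIC library held tumour-initiating cells, the sorted cells that can start a new tumour, and the NTC library held the non-tumorigenic cells. The sources used here do not give the age of the mice, the origin of the tumours, the sorting gate or the number of animals pooled. Each kind of cell had 1 library, so there is no replicate spread, no test and no p-value, and every difference is between these 2 libraries.

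Polyamines are small, positively charged molecules that bind nucleic acids, and growing cells need them for protein synthesis. Ornithine decarboxylase (Odc1) makes putrescine, and S-adenosylmethionine decarboxylase (Amd1) supplies the aminopropyl groups that spermidine synthase (Srm) and spermine synthase (Sms) add to it. Spermidine/spermine acetyltransferase (Sat1) tags the longer polyamines for export or for oxidation by polyamine oxidase (Paox), while spermine oxidase (Smox) acts on spermine directly. Antizyme (Oaz1, Oaz2) binds Odc1 protein and sends it to the proteasome, and the antizyme inhibitor (Azin1), an inactive relative of Odc1, binds antizyme in its place.

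Levels are in FPKM (fragments scaled to transcript length and to the mapped fragments of a library). The scaling for length lets genes be set side by side, but only roughly. Effects of amplifying a small RNA input, and of reads shared between entries, on comparisons between genes were not tested. The log2 ratio of TIC to NTC was taken after adding 1 FPKM to each level, which makes differences of low genes look smaller. A gene with a mean of at least 1 FPKM is called measured, and a log2 ratio of 1 or more in size is called 2-fold. All 9 genes were measured, although Amd1 passed only through its level in NTC. From low values inside a fixed window, a level of 1 FPKM was taken as roughly 21.0 reads per kilobase in TIC and 21.6 in NTC. The window itself bounds this estimate, so it is only a rough guide. Apart from Amd1, the genes rested on at least about 117 reads in each library by this guide, but such estimates cover counting only. They use the longest transcript, which overstates the reads where a shorter one is expressed.

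Both libraries carried the lineage genes of mammary epithelium, in opposite proportion. The 8 basal markers, among them Krt5, Acta2 and Trp63, summed to 3732 FPKM in TIC and 39.9 in NTC, and the 8 luminal markers, among them Krt18, Krt19 and Elf5, summed to 26.2 and 3612 FPKM. Of the 6 fibroblast markers, 3 were measured and 2-fold higher in TIC, with a sum of 171.4 against 2.37 FPKM. These were Dcn (151.8 against 1.51), Col1a2 (9.56 against 0.0119) and Pdgfra (8.83 against 0.513), while Col1a1 had 0.459 against 0.339 FPKM, and Col3a1 and Lum were below 1 FPKM in both. The 8 leukocyte markers summed to 2.44 and 2.23 FPKM, with Ptprc, Cd3e and Emr1 among those listed at 0 in both, and the 4 endothelial markers summed to 2.94 and 0.351 FPKM. The 4 erythroid markers summed to 0.518 and 6.20 FPKM.

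The polyamine genes split between 3 past 2-fold and 6 inside it. Odc1 was 2-fold higher in TIC, as were 14.6% of the 12004 measured genes. Sat1 and Amd1 were 2-fold lower in TIC, as were 13.8% of measured genes. With 3 of 9 genes past 2-fold in either direction, the count lay near the 28.4% of all measured genes. The median log2 ratio of the 9 genes was 0.01, the value of Oaz1 itself, against -0.16 for all measured genes. With Oaz1 summed with Gm9786, another entry at its locus, the median was -0.27. The differences in Odc1 and Sat1 went in opposite directions, and the difference in Amd1 depended on a second entry at its locus.

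**Figure D1:**
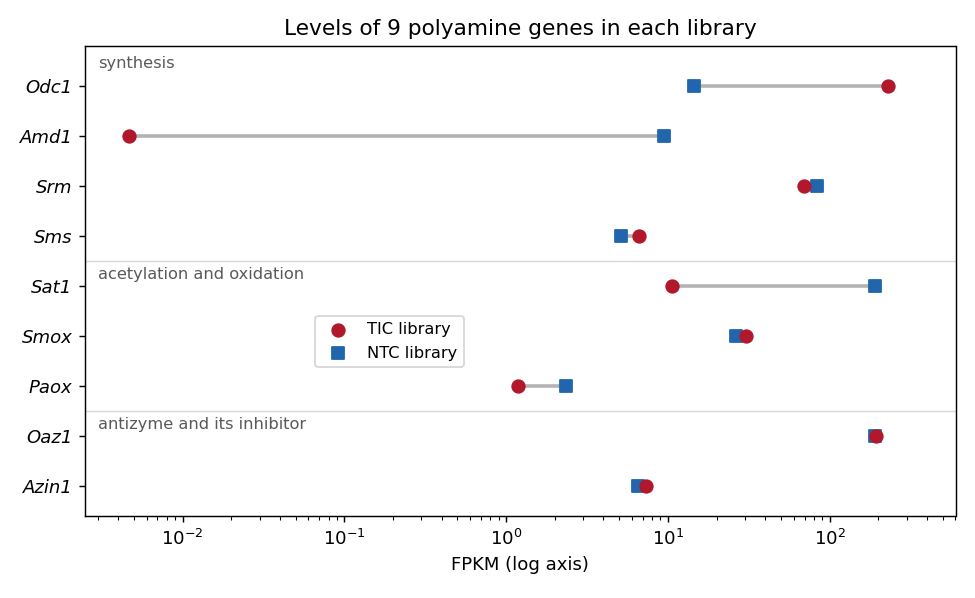
FPKM of the 9 polyamine genes (horizontal log axis) in the TIC library (red circles) and the NTC library (blue squares), with a grey line joining the values of a gene. Odc1 and Sat1 changed places, with 228.4 FPKM for Odc1 in TIC and 191.3 FPKM for Sat1 in NTC, while the markers of Srm, Sms, Smox, Oaz1 and Azin1 lie close together.

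The sequences upstream of Odc1 and Sat1 are shown because these genes differed strongly in opposite directions and share their loci with no other entry. Each run is the 250 bases before the RefSeq start of the gene in build GRCm38.p6, a later build than that of the expression tables, written 5′ to 3′ on the strand of the gene. Capitals mark GGGCGG or its complement CCGCCC, the core of the GC box that Sp1-type factors bind.
Odc1 (chr12:17544623-17544872, plus strand): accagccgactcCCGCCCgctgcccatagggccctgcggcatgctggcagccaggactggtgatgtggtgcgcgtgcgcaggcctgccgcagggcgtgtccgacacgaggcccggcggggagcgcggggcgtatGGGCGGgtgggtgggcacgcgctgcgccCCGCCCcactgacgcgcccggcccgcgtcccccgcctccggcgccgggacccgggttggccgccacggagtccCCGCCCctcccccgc
Sat1 (chrX:155216450-155216699, minus strand): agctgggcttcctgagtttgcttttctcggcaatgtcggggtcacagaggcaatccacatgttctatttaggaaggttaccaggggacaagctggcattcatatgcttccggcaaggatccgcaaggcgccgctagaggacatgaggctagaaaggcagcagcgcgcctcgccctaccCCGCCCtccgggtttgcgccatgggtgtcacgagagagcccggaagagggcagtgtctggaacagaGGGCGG

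The window of Odc1 held 4 GC boxes and that of Sat1 held 2, and 32.7% of all 32851 windows of the same length held at least 1. GC content was 80.0% before Odc1 and 59.6% before Sat1, against a median of 52.4% over all windows. Odc1 stood above 98.8% of windows in GC content and had 35 CpG dinucleotides, where the median window had 6 and Sat1 had 15. Of the 10 symbols, 8 had a window in the RefSeq table, with no entry for Srm and Azin1, and Sms and Paox had more than 1 start. Among these 10 windows, 8 held a GC box, with 6 before Smox, and 9 had a GC content above the median window. The 2 Paox windows, both with a GC box, overlap over most of their length and are not independent. A further window is that of Oaz2, the symbol without an expression row. The E-box CACGTG, the palindrome bound by Myc and Max, was found in 1 of the 10, an Sms window, and in 6.02% of all windows. The TATA box TATAAA and the cyclic AMP element TGACGTCA were in none of the 10 windows, and in 12.4% and 1.55% of all windows. The antioxidant element TGACNNNGC was in 2 of the 10 and in 10.2% of all windows, and CCAAT was in 2 of the 10 and in 33.8% of all. All motifs were searched on both strands. A match is a description of letters and not a binding site. Bases after the start and further upstream were not searched, so a missing match says nothing about the rest of a gene.

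Among the genes of synthesis, Odc1 was the only one that was 2-fold higher in TIC. Odc1 (chromosome 12, 17551679 to 17558308, build mm9) had 228.4 FPKM in the TIC library and 14.4 FPKM in the NTC library. The level was 15.8-fold higher in TIC, and the log2 ratio was 3.89. Odc1 ranked 182nd of 22558 genes by level in TIC and 5008th in NTC, and 252 of the 12004 measured genes had a higher ratio. Basal marker genes were high in the same library, and in bulk samples a smaller share of cells with a transcript and less transcript per cell cannot be told apart. The part of lineage in the Odc1 difference was not tested.

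The enzymes after Odc1 that transfer aminopropyl groups differed little. Srm (chromosome 4, 147965622 to 147968728) had 69.5 FPKM in TIC and 83.8 FPKM in NTC, a log2 ratio of -0.27. Sms (chromosome X, 153881886 to 153929978) had 6.61 FPKM in TIC and 5.17 FPKM in NTC, a log2 ratio of 0.30. Both ratios lay inside 2-fold, and Srm was the more abundant transcript in both libraries. Srm exceeded Sms 10.5-fold within TIC and 16.2-fold within NTC, a comparison that does not depend on how the libraries were scaled to each other.

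The value of Amd1 could not be read by itself, because the tables list Amd1 and Amd2 at the same locus (chromosome 10, 40007264 to 40021994). Amd1 had 0.00466 FPKM in TIC and 9.45 FPKM in NTC, a log2 ratio of -3.38, whereas Amd2 had 11.9 FPKM in TIC and 11.5 FPKM in NTC. The TIC value of Amd1 was worth roughly 0.313 of a read, below what 1 read is worth. Amd1 held 0.0390% of the summed level of both entries in TIC and 45.2% in NTC. The sum was 11.9 FPKM in TIC and 20.9 FPKM in NTC, so that NTC was 1.75-fold higher, and the log2 ratio of the sum, -0.76, no longer reached 2-fold. Counted that way, 1 polyamine gene was 2-fold lower in TIC, which was Sat1.

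The sequences show how alike the 2 entries are. In the GENCODE M21 transcripts, the coding sequences of Amd1 and Amd2 are both 1002 bases long and differ at 1 position, an identity of 99.9%, and the whole transcripts are 99.1% identical. Counting from 1 at the first base of the start codon of Amd1, the difference is G796C, and it lies after 795 identical bases. The stretch from base 766 to base 825 of each coding sequence is printed with the differing base in capitals.
Amd1: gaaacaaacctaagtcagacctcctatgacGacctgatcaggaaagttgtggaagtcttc
Amd2: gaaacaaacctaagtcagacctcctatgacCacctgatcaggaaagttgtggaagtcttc

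The Amd2 entry carries the remark that it stands for several gene identifiers, and the sources used here do not say how reads shared by near-identical copies were assigned. The values of Amd1 and Amd2 taken separately are therefore uncertain.

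**Figure D2:**
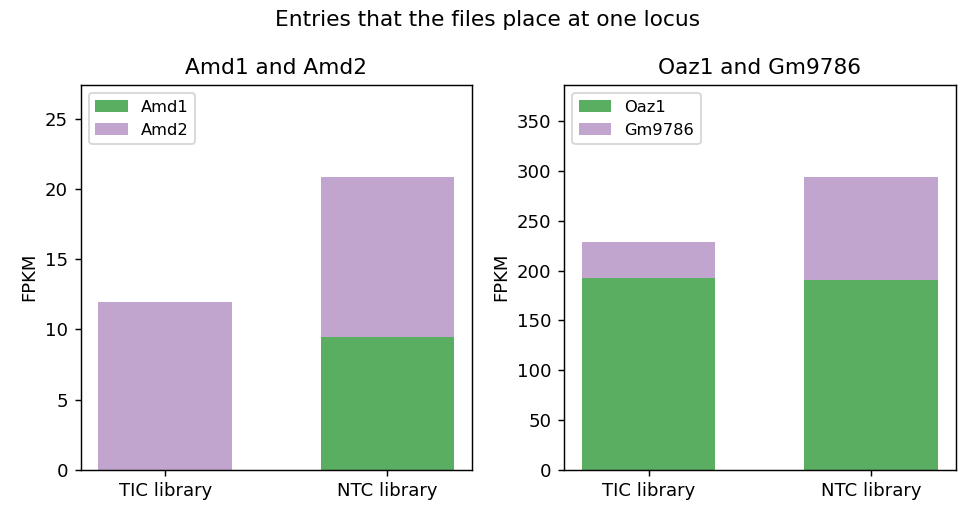
Stacked bars of FPKM for the pairs of entries that the tables place at one locus, in the TIC and NTC libraries. In the left panel Amd1 (green) is visible only in NTC while Amd2 (purple) has about the same height in both, and in the right panel Oaz1 (green) is level while Gm9786 (purple) is higher in NTC.

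Of the genes that break polyamines down, Sat1 went in the direction opposite to Odc1. Sat1 (chromosome X, 151647682 to 151650952) had 10.6 FPKM in TIC and 191.3 FPKM in NTC. The level was 18.1-fold higher in NTC, and the log2 ratio of TIC to NTC was -4.06. Sat1 ranked 247th by level in NTC and 5940th in TIC, and 124 of the measured genes had a lower ratio. No other entry was listed at the loci of Odc1 and Sat1. Luminal marker genes were high in the same library as Sat1, and their part in its difference was not tested.

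The oxidases were less different. Smox (chromosome 2, 131317598 to 131350919) had 30.2 FPKM in TIC and 26.4 FPKM in NTC, a log2 ratio of 0.19. Paox (chromosome 7, 147311584 to 147320233) had 1.19 FPKM in TIC and 2.34 FPKM in NTC, a log2 ratio of -0.61. Without the pseudocount, Paox was 1.96-fold higher in NTC, only just inside 2-fold. Smox, which needs no prior acetylation of its substrate, was the more abundant oxidase in both libraries, 25.4-fold above Paox in TIC and 11.3-fold in NTC.

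**Figure D3:**
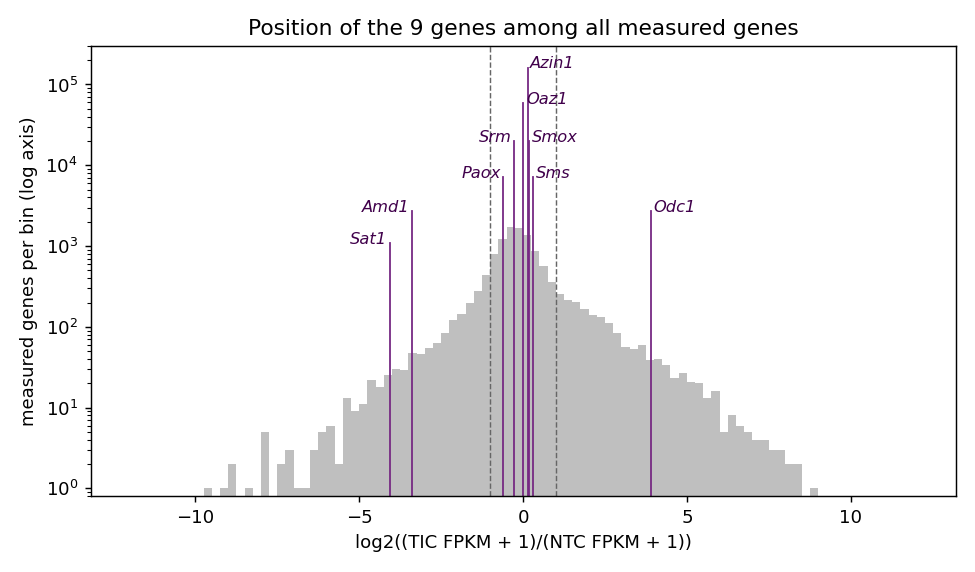
Histogram of the log2 ratio of TIC to NTC over the 12004 measured genes (horizontal axis in bins of equal width, vertical log axis in genes per bin), with a vertical line at the ratio of each polyamine gene. Line heights only separate the names, and dashed lines mark 2-fold. Odc1 lies at 3.89, Amd1 at -3.38 and Sat1 at -4.06, and the other 6 genes lie between -0.61 and 0.30.

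Oaz1 and Azin1, the regulators of Odc1 protein among the 9 genes, had nearly equal levels in the 2 libraries by their own entries. The second antizyme inhibitor, listed as Adc, was higher in TIC (4.83 against 0.769 FPKM) and is described with the paralogs. Oaz1 (chromosome 10, 80289401 to 80292035) had 192.5 FPKM in TIC and 191.0 FPKM in NTC, a log2 ratio of 0.01. Azin1 (chromosome 15, 38417185 to 38449021) had 7.28 FPKM in TIC and 6.51 FPKM in NTC, a log2 ratio of 0.14. Oaz1 ranked 231st by level in TIC and 248th in NTC, and it exceeded Azin1 26.4-fold in TIC and 29.3-fold in NTC. The balance of the Oaz1 and Azin1 entries was thus similar in the 2 libraries, while the level of Odc1 was not.

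The Oaz1 locus also carried the entry Gm9786, a symbol that RefSeq gives as an older name of the pseudogene Oaz1-ps on chromosome 17. Gm9786 had 35.9 FPKM in TIC and 103.7 FPKM in NTC, and a microRNA entry at the same place, Mir1982, was listed at 0 in both. Summed with Gm9786, Oaz1 had 228.4 FPKM in TIC and 294.7 FPKM in NTC, a log2 ratio of -0.37. The near equality of Oaz1 thus held for its own entry, and the sum was 1.29-fold higher in NTC. The ratio of Azin1 to this sum was 1.44-fold higher in TIC, against 1.11-fold for the Oaz1 entry alone.

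No row carried the symbol Oaz2, but a row named Oaz2-ps lay on chromosome 9 (65524355 to 65538107). RefSeq lists Oaz2-ps as a synonym of the gene Oaz2, which it also places on chromosome 9. This row had 37.7 FPKM in TIC and 36.4 FPKM in NTC, a log2 ratio of 0.05. It is given here as a value of that row and was not counted among the 9 genes.

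Antizyme is known for control during translation. A ribosome must slip by a base at a stop codon to make the full protein, and polyamines favour the slip. The sites in transcripts of Oaz1 and Oaz2 are shown because transcript levels, the quantity measured here, do not report on this step. Each line is 30 bases of a GENCODE M21 transcript around the sequence TCCTGATG, with the stop codon in capitals.
Oaz1: cctcggtggtgctccTGAtgtccctcaccc
Oaz2: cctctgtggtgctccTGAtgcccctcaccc

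The 2 windows are identical at 28 of 30 bases, and the stop codon and the bases next to it are shared.

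Ratios between genes within a library, which do not depend on the scaling of the libraries, showed the contrast of Odc1 and Sat1 most clearly. Odc1 stood 21.6-fold above Sat1 in TIC, and Sat1 stood 13.3-fold above Odc1 in NTC. Odc1 was 1.19 times the level of Oaz1 in TIC and 0.0755 times that level in NTC. With Gm9786 added to Oaz1, the values were 1.00 and 0.0490. Transcripts of Odc1 and Oaz1 were thus close to level in TIC. In NTC the Oaz1 entry was 13.2-fold higher than Odc1, and 20.4-fold higher with Gm9786 added. The Oaz2-ps row was left out of these ratios.

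The other genes around the pathway were taken from 6 lists with 59 genes, of which 41 were measured. At least 2-fold higher in TIC were 10 and at least 2-fold lower were 6, where the shares of all measured genes were 14.6% and 13.8%. The median log2 ratio was 0.05. The lists are small, and their counts are to be read against these same shares. Genes of arginine and ornithine supply differed in both directions, with 2 of 10 measured genes 2-fold higher in TIC and 4 2-fold lower (median -0.42), against 14.6% and 13.8% of all measured genes. Arg1, the cytosolic arginase that makes ornithine, had 0.0673 FPKM in TIC and 14.3 FPKM in NTC, and the mitochondrial arginase Arg2 had 0.605 and 5.10 FPKM. Oat, which interconverts ornithine and glutamate semialdehyde in mitochondria, had 43.3 FPKM in TIC and 10.7 FPKM in NTC. The arginine transporter Slc7a1 had 32.2 and 11.8 FPKM. Arginase transcripts, which act just before Odc1, were therefore low in the library in which Odc1 was high.

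Other genes of this list were Asl, the last step of arginine synthesis, with 7.88 FPKM in TIC and 29.8 FPKM in NTC, and Gatm, which uses arginine for creatine synthesis, with a listed 0 in TIC and 9.84 FPKM in NTC. The Asl entry is described as several gene identifiers, so its value is uncertain. Arg2 and Gatm fell under a minimum mean of 5 FPKM, which left 2 genes of the list 2-fold lower. Aldh18a1, which starts proline and ornithine synthesis from glutamate, had the highest mean level of the list, with 37.4 and 40.3 FPKM, although Oat was higher in TIC.

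The methionine cycle provides S-adenosylmethionine to Amd1, and the salvage pathway recovers methylthioadenosine, the by-product of Srm and Sms. Of 14 measured genes, 2 were 2-fold higher in TIC and 1 was 2-fold lower (median -0.11). Mtap, the first salvage enzyme, had 30.1 FPKM in TIC and 11.4 FPKM in NTC, while Adi1, which acts late in salvage, had 29.7 and 61.8 FPKM. Adi1 was only just past 2-fold, at a log2 ratio of -1.03, and was inside it with a pseudocount of 5 FPKM, after centring on the median gene and under each other scaling. Cth, which makes cysteine from cystathionine, had 5.77 and 0.722 FPKM, and its call was lost with a pseudocount or a minimum mean of 5 FPKM. The Cth entry is described as several gene identifiers, so its value is uncertain. Mat2a, which makes S-adenosylmethionine outside the liver, had the highest mean level of the list, with 63.2 and 85.9 FPKM, although Ahcyl1 (75.9 and 72.6 FPKM) was higher in TIC.

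Of 7 measured genes tied to polyamine transport, 3 were 2-fold higher in TIC and 1 was 2-fold lower (median 0.54), against 14.6% and 13.8% of all measured genes. The median was 1.20 with a minimum mean of 5 FPKM, which left fewer genes. It was 1.19 with both libraries rescaled to TPM (transcripts scaled to a common total). There the pseudocount and minimum mean stayed at 1 on a scale of larger values, so Slc12a8 of this list (1.43 against 0.265 FPKM) also passed. The 1.19 is thus not an effect of scaling alone. The lower call was lost with a minimum mean or a pseudocount of 5 FPKM. Cav1 of the caveolae had 97.8 FPKM in TIC and 4.11 FPKM in NTC, and Gpc1, a heparan sulphate proteoglycan linked to polyamine uptake, had 78.3 and 6.21 FPKM. Slc3a2, the heavy chain of several amino acid exchangers, had 303.5 and 82.5 FPKM. The lysosomal polyamine exporter Atp13a2 was level, with 17.2 FPKM in TIC and 16.9 FPKM in NTC. Also inside 2-fold were Atp13a3 (16.7 FPKM in TIC against 25.5 in NTC) and the entry 1110021L09Rik (9.60 against 6.30 FPKM). Atp13a4 had 4.53 FPKM in NTC and a listed 0 in TIC. The 3 genes that were 2-fold higher in TIC have other functions beside polyamine transport. Basal markers were high in the same library, and their part in these differences was not tested.

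Hypusination turns a lysine of the translation factor eIF5A into hypusine with a part of spermidine. Of its 4 genes, Eif5a2 was 2-fold higher in TIC (2.84 against 0.503 FPKM), and none was 2-fold lower. That call was lost with a pseudocount or a minimum mean of 5 FPKM. Eif5a, the main form and the highest gene of the list, had 208.2 FPKM in TIC and 267.4 FPKM in NTC. The enzymes Dhps (7.45 against 7.12 FPKM) and Dohh (9.61 against 13.4 FPKM) were inside 2-fold. Of 3 measured amine oxidases and aldehyde dehydrogenases, Maob, an oxidase of monoamines, was 2-fold higher in TIC (14.9 against 0.805 FPKM). Aldh9a1 had 14.5 against 16.5 FPKM. The entries Eif5a, Eif5a2 and Maob are described as several gene identifiers, so their values are uncertain.

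Paralogs of the polyamine genes were mostly low. Adc, the older symbol of the second antizyme inhibitor Azin2, had 4.83 FPKM in TIC and 0.769 FPKM in NTC and was 2-fold higher in TIC, a call that was lost with a pseudocount or a minimum mean of 5 FPKM. Sat2, a relative of Sat1, had 2.96 FPKM in TIC and 4.18 FPKM in NTC. The difference of Sat1 was thus not accompanied by a 2-fold difference in Sat2. Oaz3, the testis antizyme, was listed at 0 in TIC with 0.0855 FPKM in NTC, and Satl1 was listed at 0 in both.

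**Figure D4:**
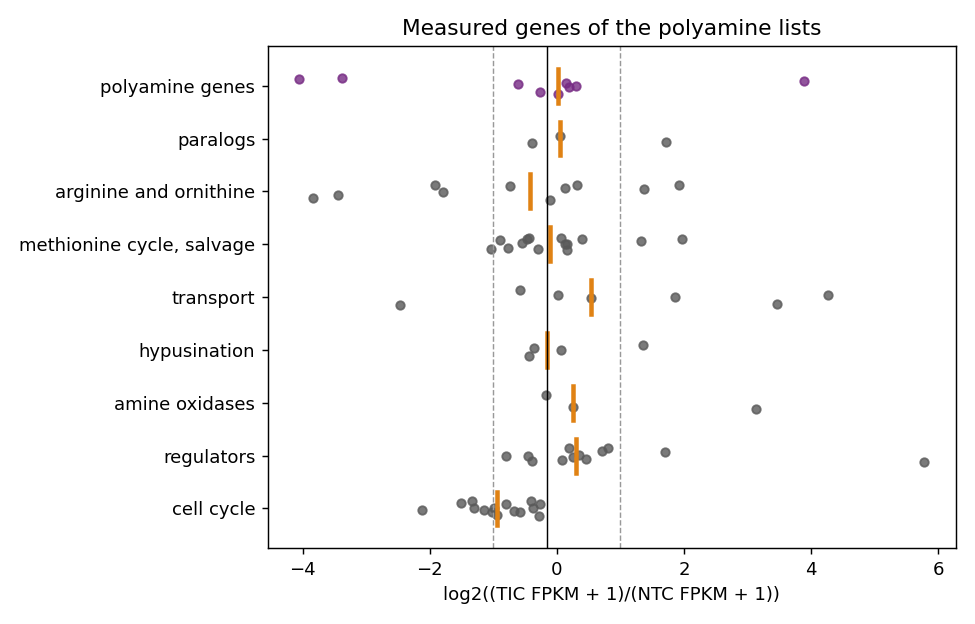
Log2 ratio of TIC to NTC for the measured genes of the polyamine group (purple) and of 8 lists of related genes (grey), with each list's median as an orange bar, the median of all measured genes as a black line and 2-fold as dashed lines. The polyamine group has 3 genes outside the dashed lines, and the 15 cell cycle genes all lie to the left of 0.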

How the data were processed

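Total RNA was extracted, amplified from a small input to cDNA, fragmented and made into libraries, per the labels' protocols. The authors deposited 1 table of FPKM per gene for each library. Build mm9 and the tools Cufflinks, Cuffdiff, TopHat 1.4.0 and CASAVA 1.8.2 are listed in the submitters' processing notes, with no roles. The header of the position column mentions a human build, but the genes are mouse, and positions are given as mm9. Starts are counted from 0, since end minus start equalled the RefSeq gene length for 6724 of 20009 matched genes against 448 otherwise, and 1 was added. In the tables, 3712 entries shared a locus with another entry.

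FPKM are not counts, so no count model was fitted, and with 1 library per group there was no test. Ratios were computed in Python 3.11.15 with pandas 2.3.3, with a pseudocount of 1 FPKM and a minimum mean of 1 FPKM, and the code was tested on simulated data. What 1 read is worth was taken as the median of FPKM × kb between 0.035 and 0.065 in olfactory and vomeronasal receptor genes below 1.5 kb (23 genes in TIC, 39 in NTC). Reads per gene used the longest coding GENCODE M21 transcript. The FPKM total was 332935 for TIC and 376464 for NTC. Genes listed at 0 numbered 7345 and 7397, and a 0 is not read as absence.

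Sequences came from RefSeq (GRCm38.p6) and GENCODE M21. Promoter motifs were searched over the 250 bases before each start. The genes and lists were chosen with earlier results of these data known. Every polyamine gene is named. In each other list, up to 4 genes past 2-fold in each direction and the gene with the highest mean level are named. Sat2, Ahcyl1, Atp13a2, Atp13a3, 1110021L09Rik, Slc12a8, Dhps, Dohh, Oaz3, Satl1 and Max were named after their values were seen. Entries described as several gene identifiers, and so uncertain, were Amd2, Asl, Cth, Eif5a, Eif5a2 and Maob. Alternatives were other pseudocounts, filters and scalings.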

Additional observations from a re-analysis of the deposited data

How the results depend on the processing

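The 8 alternatives left the 2-fold call and the sign of every polyamine gene as they were, except that Amd1 and Paox could not be scored with a minimum mean of 5 FPKM, so that 1 gene was then 2-fold lower. The log2 ratio of Odc1 ranged from 3.59 to 4.13 and that of Sat1 from -4.17 to -3.66, while Amd1, which was close to 0 in TIC, ranged from -6.51 to -1.53 with the pseudocount. Srm ranged from -0.27 to -0.09 and Paox from -0.92 to -0.24. Rescaling each library to TPM moved the median of all measured genes from -0.16 to 0.01. That setting kept the pseudocount and minimum mean at 1 on the larger TPM scale, so genes of lower FPKM passed. Over all genes, a pseudocount of 5 gave 1086 genes higher and 921 lower, and a minimum mean of 5 gave 1108 higher. In the wider pathway lists, 3 genes in place of 6 were 2-fold lower under each of these 2 settings. Summing Amd1 with Amd2, chosen after seeing the data, left 1 polyamine gene 2-fold lower. Summing Oaz1 with Gm9786, chosen in the same way, moved the median log2 ratio of the polyamine genes from 0.01 to -0.27. No paired analysis was possible because each group had 1 library. Depth limits Amd1 in TIC, and FPKM give no counting interval.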

Other observations

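Genes that are known to regulate the polyamine genes included 2 of 12 past 2-fold, both higher in TIC (median log2 ratio 0.30), where 14.6% of all measured genes were 2-fold higher and 13.8% lower. With both libraries rescaled to TPM, 4 of 12 were 2-fold higher. Myc, a transcription factor known to activate Odc1, had the highest mean level of the list, with 133.0 FPKM in TIC and 231.4 in NTC. Its relative Mycn had 67.9 FPKM in TIC and 0.255 FPKM in NTC. Nfe2l2, the oxidative stress factor NRF2, had 170.9 FPKM in TIC and 51.7 FPKM in NTC. Max, the shared partner of the Myc proteins, had 65.1 and 86.2 FPKM. The part of these regulators in the differences of the polyamine genes was not tested.

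Odc1 is commonly high in dividing cells, but the cell cycle list did not share its direction. All 15 genes had lower values in TIC, 6 of them by at least 2-fold (median log2 ratio -0.94), against 13.8% of all measured genes. The count past 2-fold was 4 after centring on the median gene or with TPM, and 7 with a pseudocount of 0.1 FPKM. Mcm6, a subunit of the replication helicase, had 16.1 FPKM in TIC and 73.5 FPKM in NTC, Mcm5 had 12.2 and 36.4, Mcm2 21.9 and 57.1, and Mcm7 12.8 and 33.1 FPKM. Mki67, a general marker of cycling cells and the highest gene of the list, had 43.7 and 87.9 FPKM. Whether these levels bear on Odc1 was not tested.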
